A study of Mus musculus with 8 samples.

Results

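The genes described here are 7 genes of the endothelial response to flow, the shear-stress response: the ion channel gene Piezo1, the kinase genes Map2k5 and Mapk7, the transcription factor genes Klf2 and Klf4, and the target genes Nos3 and Thbd. They were taken by gene symbol, 7 of the 31053 genes in the count tables, and all 7 were found once. They were chosen by their place in the pathway and with earlier results of these libraries known, among them the difference of Klf2 in the knockout of Lama5. The measurements were single-cell RNA-seq counts of the mouse brain cortical plate, in 7 distinct libraries of 4 groups of mice that were 8 weeks old. Mice labelled Lama4-/-, which lack Lama4, gave 1 distinct library, because both deposited matrices of that group held identical values and were counted once. Their wild-type (WT) controls gave 2 libraries. Mice labelled Tek-cre:Lama5-/-, here called the Lama5 knockout, gave 2 libraries, and their own WT mice gave 2. Each group was a pool of 3 mice per the labels, and nothing in them says that the libraries of a group came from separate animals, so their spread may be technical and every p-value compares pools of mice and not individual mice. Lama4 and Lama5 encode laminin chains of the vascular basement membrane. Tek-Cre, as background, acts in endothelial cells and in blood-derived cells, so macrophages can carry the Lama5 deletion too. All mice were perfused with cold buffer, and the tissue was digested with enzymes for 60 min at 37 °C, so blood flow had stopped before the cells were captured.

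Blood flow drags along the endothelial surface, and endothelial cells answer this shear stress by changing their transcription. PIEZO1 is a cation channel opened by mechanical force. MEKK3 activates the kinase MEK5 (Map2k5), MEK5 activates ERK5 (Mapk7), and ERK5 drives MEF2 factors at the promoters of Klf2 and Klf4. The transcription factors KLF2 and KLF4 then raise Nos3, the endothelial nitric oxide synthase, and Thbd, thrombomodulin, which turns thrombin towards the anticoagulant protein C pathway. Klf2 and Klf4 are also induced within minutes by many stresses, cell isolation among them.

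On the GRCm38 build with GENCODE M21, each gene was protein coding. Klf2 lies at chr8:72319033-72321656 on the plus strand and Klf4 at chr4:55527143-55532466 on the minus strand. Nos3 lies at chr5:24364810-24384474 on the plus strand and Thbd at chr2:148404466-148408188 on the minus strand. Piezo1 lies at chr8:122481698-122551329, Map2k5 at chr9:63163768-63377902 and Mapk7 at chr11:61488812-61494406, all on the minus strand.

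The promoters of Klf2 and Klf4 are shown because both genes are classical outputs of the kinase cascade and yet moved apart in these libraries. They are the 250 bases upstream of the RefSeq start (build GRCm38.p6), 5′ to 3′ on the strand of the gene, and capitals mark the match to the MEF2 consensus.
Klf2, chr8:72318812-72319061, plus strand: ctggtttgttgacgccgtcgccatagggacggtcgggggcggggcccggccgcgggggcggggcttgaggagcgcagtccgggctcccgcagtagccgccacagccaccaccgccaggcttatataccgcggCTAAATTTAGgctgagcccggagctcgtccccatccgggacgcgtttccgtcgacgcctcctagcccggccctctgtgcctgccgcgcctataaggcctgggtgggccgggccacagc
Klf4, chr4:55532476-55532725, minus strand: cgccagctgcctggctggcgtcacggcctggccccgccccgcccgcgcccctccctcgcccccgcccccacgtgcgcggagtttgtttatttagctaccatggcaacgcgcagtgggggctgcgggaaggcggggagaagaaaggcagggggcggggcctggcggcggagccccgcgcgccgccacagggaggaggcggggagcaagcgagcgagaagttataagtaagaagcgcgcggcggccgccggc
The Klf2 window held 1 match to the MEF2 consensus, the same letters on both strands, 118 bases upstream of the start, and 2.92% of the 32851 RefSeq windows of that length held one. The Klf4 window held none. The letters CCNCNCCC, a core that KLF proteins bind, stood at 4 places in the Klf2 window and at 9 in the Klf4 window, counting both strands and overlapping places, and in 45.9% of all windows at least once. The GC content was 71.2% for Klf2 and 74% for Klf4, against a median of 52.4% over all windows. RefSeq windows were matched for 5 of the 7 genes. In those of Piezo1, Map2k5 and Mapk7 no MEF2 match was found, and CCNCNCCC stood at 1 place in Piezo1, at none in Map2k5 and at 1 in Mapk7. The consensus of the SRF CArG box, TGANTCA and TGACGTCA, which 1.47%, 6.75% and 1.55% of all windows held, were in no window of the 5 genes. A match of letters is a description and not a measured binding site.

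The libraries held 35479306 to 48314458 UMIs (unique molecular identifiers, one per captured transcript), and 47239 of 56961 cell barcodes were kept. The median kept cell had 5264 to 6542 UMIs in the Lama4 experiment and 2904 to 3794 in the Lama5 experiment, with the Lama5 knockout below its WT. Any 2 libraries shared at most 20 kept barcodes. Endothelial-like cells, named from markers such as Cldn5 (4846 to 6829 counts per 1000000 counts, CPM) and Flt1 (4317 to 5191), numbered 26111. They divided into arterial endothelial-like (3689 cells), capillary endothelial-like (11697) and venous endothelial-like cells (4073). Of the other 2 clusters, one led by Sema3g, Rad54b and Alpl held 5916 cells and one led by Ifit3, Ifit1 and Iigp1 held 736, and neither met the marker rule for a name. None of the 7 genes was used in making the zones. Endothelial Lama4 stood at 45.7 and 44.5 CPM in its WT libraries and at 0.1 in the Lama4-/- library. Endothelial Lama5 was 41.4 and 41.0 CPM in the WT of its experiment and 22.7 and 24.8 in the knockout. These 3′ tags may lie outside the deleted part of Lama5, whose position is not given in the sources used here, so this level is a limited check of the deletion.

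Levels below are CPM of the counts summed over a cell group in a library, scaled by TMM (a correction for composition) within each experiment and cell group, so levels set side by side across experiments were scaled separately. They are not corrected for gene length, since the tags come from the 3′ end, and are not compared between genes. In each list of values the order is the pair of Lama4 WT libraries, the Lama4-/- library, the pair of Lama5 WT libraries and the pair of Lama5 knockout libraries, unless said otherwise.

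**Figure D1:**
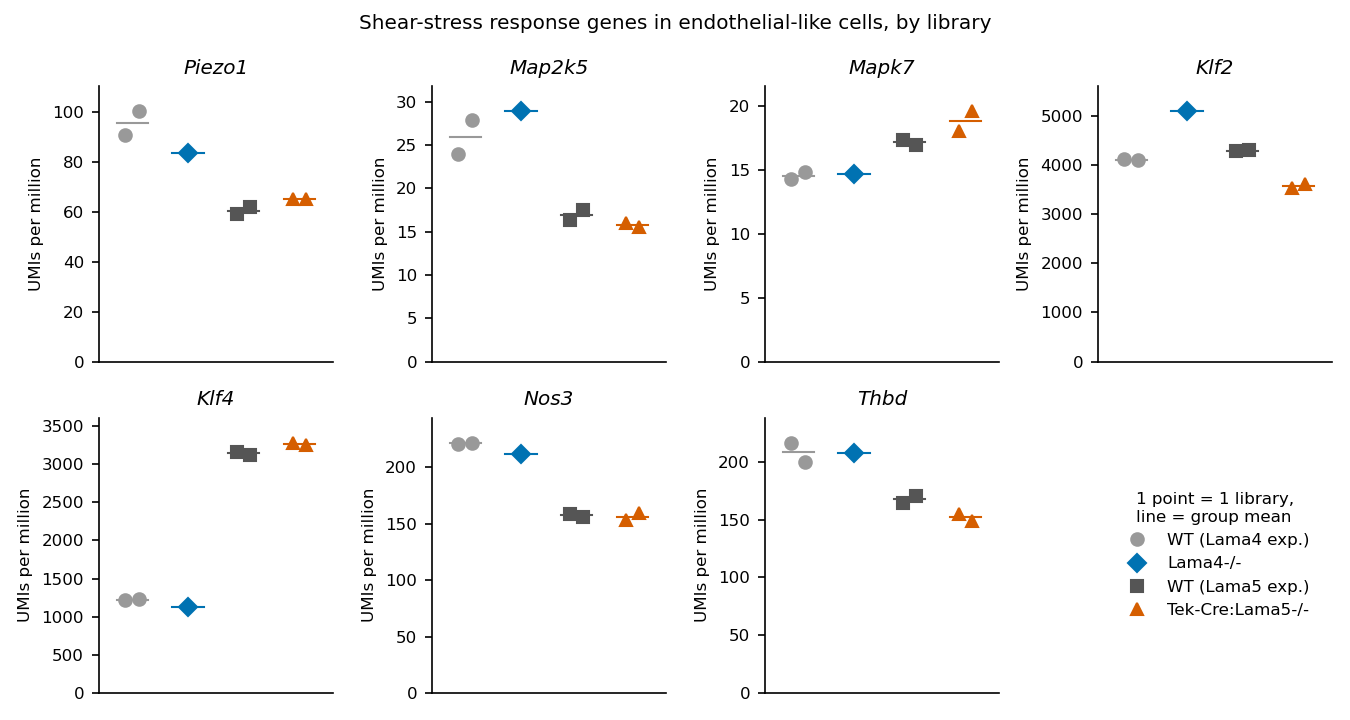
Level of each of the 7 genes in endothelial-like cells (CPM of summed counts, own vertical axis for each gene), one point per library, coloured by group. Klf2 was below its WT (mean 4298 CPM) in both Lama5 knockout libraries (3541 and 3621 CPM). It was above its WT (4133 and 4098 CPM) in the Lama4-/- library (5105 CPM). Klf4 separated the experiments (1125 to 1232 against 3118 to 3281 CPM). Levels were scaled separately within each experiment.

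Across cell classes the members fell into 3 patterns. Nos3 was low outside the endothelium and Thbd was also found in mural cells. Klf2 and Klf4 were high in endothelial cells and present in smooth muscle and macrophages. The kinase genes were low in every class. To read these levels against RNA released from broken cells, each gene's level in a class was expressed as a percent of its endothelial level and set beside the same percent for the endothelial markers.

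Nos3 in endothelial-like cells was 220.8, 222.1, 211.5, 158.8, 156.1, 153.0 and 159.4 CPM. In astrocyte-like, microglia-like, pericyte-like, perivascular macrophage-like and smooth muscle-like cells it lay between 0 and 21.7 CPM in every library. Its microglia-like level was 0.3% to 1.4% of the endothelial one, beside 0.3% to 1.0% for the median endothelial marker. In astrocyte-like cells, where Nos3 reached its highest level among these 5 classes, it was 2.7% to 9.9% of the endothelial level and the marker median was 2.1% to 6.7%. These levels lie near those of endothelial marker RNA in the same cells. In rarer classes, pooled over all libraries, Nos3 was at 21.8 CPM in B-like (20 UMIs), 14.5 CPM in choroid plexus-like (62 UMIs) and 11.03 CPM in ependymal-like cells (43 UMIs).

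Thbd in endothelial-like cells was 216.7, 200.2, 208.1, 164.3, 170.7, 155.2 and 148.8 CPM. Microglia-like cells had 0.2% to 1.1% of that level. Pericyte-like cells held 18.4 to 63.3 CPM, or 11.2% to 30.0% of the endothelial level, while the endothelial markers there had medians of 0.5% to 1.7%. Smooth muscle-like cells held 19.5 to 47.2 CPM, or 10.1% to 24.9%. Thbd in mural cells therefore stood well above the level of endothelial marker RNA. In the 182 fibroblast-like cells, pooled over all libraries because each had few, Thbd was at 339.8 CPM, a pooled value with no replicate spread.

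Klf2 in endothelial-like cells was 4133, 4098, 5105, 4287, 4309, 3541 and 3621 CPM. Perivascular macrophage-like cells had 2118, 1905, 1418, 1195, 1335, 944.2 and 853.6 CPM, or 23.8% to 51.7% of the endothelial level. Smooth muscle-like cells had 836.1, 930.0, 1322, 621.8, 587.6, 404.3 and 460.1 CPM, or 11.3% to 25.5%. Pericyte-like cells held 2.6% to 9.8% of the endothelial level, beside medians of 0.5% to 1.7% for the endothelial markers. Astrocyte-like cells held 1.9% to 10.4%, beside marker medians of 2.1% to 6.7%, so their Klf2 lay near the level of endothelial marker RNA.

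Microglia-like cells, the brain's resident macrophages, differed several-fold between the experiments. Klf2 there was 315.4, 321.6 and 345.9 CPM in the Lama4 experiment and 1798, 1815, 2059 and 2054 CPM in the Lama5 experiment. Cells with at least 2000 UMIs were thinned to 2000, and shallower cells were left out. Of the thinned microglia-like cells, 20.7% to 21.6% held a Klf2 UMI in the first experiment and 80.7% to 86.7% in the second. Endothelial markers in all microglia-like cells stayed at medians of 0.3% to 1.0% of their endothelial level. Experiment and mice cannot be told apart in this contrast.

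Klf4 in endothelial-like cells was 1215, 1232, 1125, 3159, 3118, 3281 and 3246 CPM. Smooth muscle-like cells held 477.0, 529.8, 530.1, 1443, 1351, 1479 and 1606 CPM, which was 39.6% to 49.4% of the endothelial level, and perivascular macrophage-like cells 32.9% to 49.9%. In every class with enough cells, Klf4 was higher in all 4 libraries of the Lama5 experiment than in all 3 of the Lama4 experiment. In microglia-like cells, for example, it was 105.3 to 115.9 against 690.0 to 801.5 CPM.

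Piezo1 in endothelial-like cells was 90.9, 100.5, 83.7, 59.1, 61.9, 65.4 and 65.2 CPM. Microglia-like cells came next, at 22.8 to 32.7 CPM. Map2k5 was 24.0, 27.9, 28.9, 16.3, 17.5, 16.0 and 15.6 CPM in endothelial-like cells, and its microglia-like level was 67.9% to 146.6% of that. Mapk7 was 14.3, 14.8, 14.7, 17.4, 17.0, 18.04 and 19.6 CPM. In the other 5 classes with enough cells in every library, Map2k5 lay between 0 and 30.3 CPM and Mapk7 between 3.6 and 35.8 CPM.

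**Figure D2:**
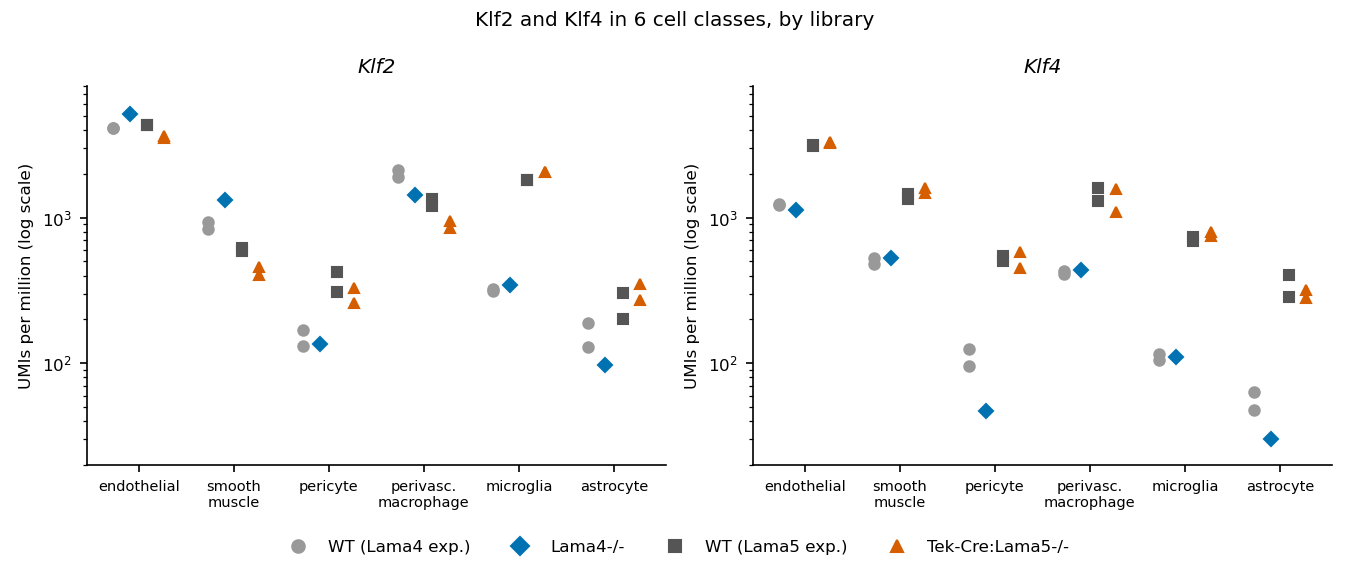
Levels of Klf2 and Klf4 by cell class (CPM of summed counts, log axis), one point per library, coloured by group. Microglia-like Klf2 lies at 315.4 to 345.9 CPM in the Lama4 experiment and at 1798 to 2059 CPM in the Lama5 experiment, and Klf4 is higher in the Lama5 experiment in each class drawn.

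Almost every endothelial-like cell of at least 2000 UMIs carried Klf2. Thinned to 2000 UMIs, 98.2% to 99.4% of these cells held a Klf2 UMI in each library, so the share was at its ceiling. Shallower cells were left out of all thinned values, and depth differed between libraries. The mean number of Klf2 UMIs per thinned cell was 7.81, 7.82, 10.1, 8.60, 8.71, 6.87 and 6.86, which kept the order of the groups seen in CPM. Klf4 was found in 73.1% to 95.4% of thinned endothelial-like cells, Nos3 in 23.0% to 32.9%, Thbd in 21.1% to 29.4% and Piezo1 in 9.61% to 17.2%. Before thinning, Nos3 was found in 33.8% to 66.3% of cells, in libraries that differ both in depth and in Nos3 level.

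The zones of the endothelium separated Nos3 from Thbd. Zones are clusters of the same cells, so their levels are described without a test. Nos3 was highest in arterial cells, at 262.7, 258.9, 263.1, 203.2, 202.0, 208.1 and 199.2 CPM. Capillary cells held 208.0, 197.0, 186.6, 136.3, 137.0, 122.7 and 129.0 CPM. The arterial level was above the capillary level in 7 of 7 libraries, with a median ratio of 1.47, and venous cells lay between them in 7 of 7. A separate, finer clustering of all endothelial-like cells gave an arterial subset led by Fbln5, Mgp and Cytl1 (503 cells, genes of larger arteries). How many of its cells lie in the arterial cluster is not given. It held 385.0, 347.8, 371.0, 299.1, 344.2, 307.8 and 327.6 CPM of Nos3. That subset was above the arterial cluster in 7 of 7 libraries, by a median ratio of 1.47.

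Thbd was highest in venous cells, at 326.5, 303.8, 307.8, 212.2, 226.4, 192.6 and 180.5 CPM. Arterial cells held 139.2, 149.3, 130.2, 135.6, 116.8, 145.7 and 134.4 CPM. The venous level exceeded the arterial level in 7 of 7 libraries (median ratio 1.94) and the capillary level in 7 of 7 (1.68). Arterial and capillary cells overlapped, with the arterial level higher in 4 libraries and lower in 3. The unnamed cluster led by Sema3g, Rad54b and Alpl held more Thbd than capillary cells in 7 of 7 libraries (median ratio 1.45), although Sema3g and Alpl are among the arterial markers used for the zones.

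Piezo1 followed the venous side too. Venous cells held 118.0, 134.1, 109.1, 76.3, 82.9, 82.1 and 87.4 CPM and capillary cells 83.2, 88.0, 72.2, 47.0, 48.2, 50.5 and 52.6 CPM. Venous cells were above capillary cells in 7 of 7 libraries (median ratio 1.62) and above arterial cells in 7 of 7 (1.35).

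Klf2 was lowest in capillary cells among the 3 named zones, by more in the Lama4 experiment than in the Lama5 experiment. Arterial cells exceeded capillary cells in 7 of 7 libraries, with a median log2 ratio of 0.30 in the Lama4 and 0.15 in the Lama5 experiment. Venous cells did so in 7 of 7 too, with medians of 0.38 and 0.05. Arterial and venous levels overlapped. The arterial subset led by Fbln5, Mgp and Cytl1 had a mean of 3900 CPM in the Lama5 WT, below 4132 CPM in capillary cells. It was above capillary cells in the Lama5 knockout (4011 beside 3470 CPM), the Lama4 WT (5483 beside 3440) and the Lama4-/- library (5833 beside 4487). The difference between the experiments was not tested. In the Lama4 experiment, 15 genes induced by tissue dissociation (early genes) summed to 17374, 17636 and 15405.5 CPM in arterial cells. They summed to 10155, 9798 and 9136 CPM in capillary and 17416, 16677 and 15422.5 CPM in venous cells. In the Lama5 experiment arterial cells held 22064, 22011, 20210 and 20756 CPM. Capillary cells held 23042, 23303, 22726 and 23019 CPM and venous cells 25736, 24967, 23834 and 23404.5 CPM. Their part in the zone levels was not tested.

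Klf4 was above the capillary level in venous cells in 7 of 7 libraries (median ratio 1.37) and in arterial cells in 7 of 7 (1.19). The order of artery and vein was opposite in the experiments. Arterial Klf4 was 1474, 1532 and 1458 CPM beside venous values of 1286, 1271 and 1121 CPM in the Lama4 experiment. In the Lama5 experiment arterial Klf4 was 3280, 3116, 3261 and 3346 CPM and venous Klf4 was 3798, 3693, 4019 and 3936 CPM. The early-gene sums given above were higher in venous than in arterial cells in each library of the Lama5 experiment. In the Lama4 experiment the sums of those zones overlapped. Capillary sums were above arterial ones in the Lama5 experiment too, although capillary Klf4 was lower. The part of the early genes in the order of Klf4 was not tested.

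Map2k5 and Mapk7 showed no order shared by all zones. Venous Mapk7 exceeded the capillary level in 7 of 7 libraries, but by a median ratio of 1.16 on levels of 13.4 to 20.1 CPM, and the order turned when zones were drawn from marker scores. Map2k5 was higher in venous than in capillary cells in 3 of 7 libraries.

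**Figure D3:**
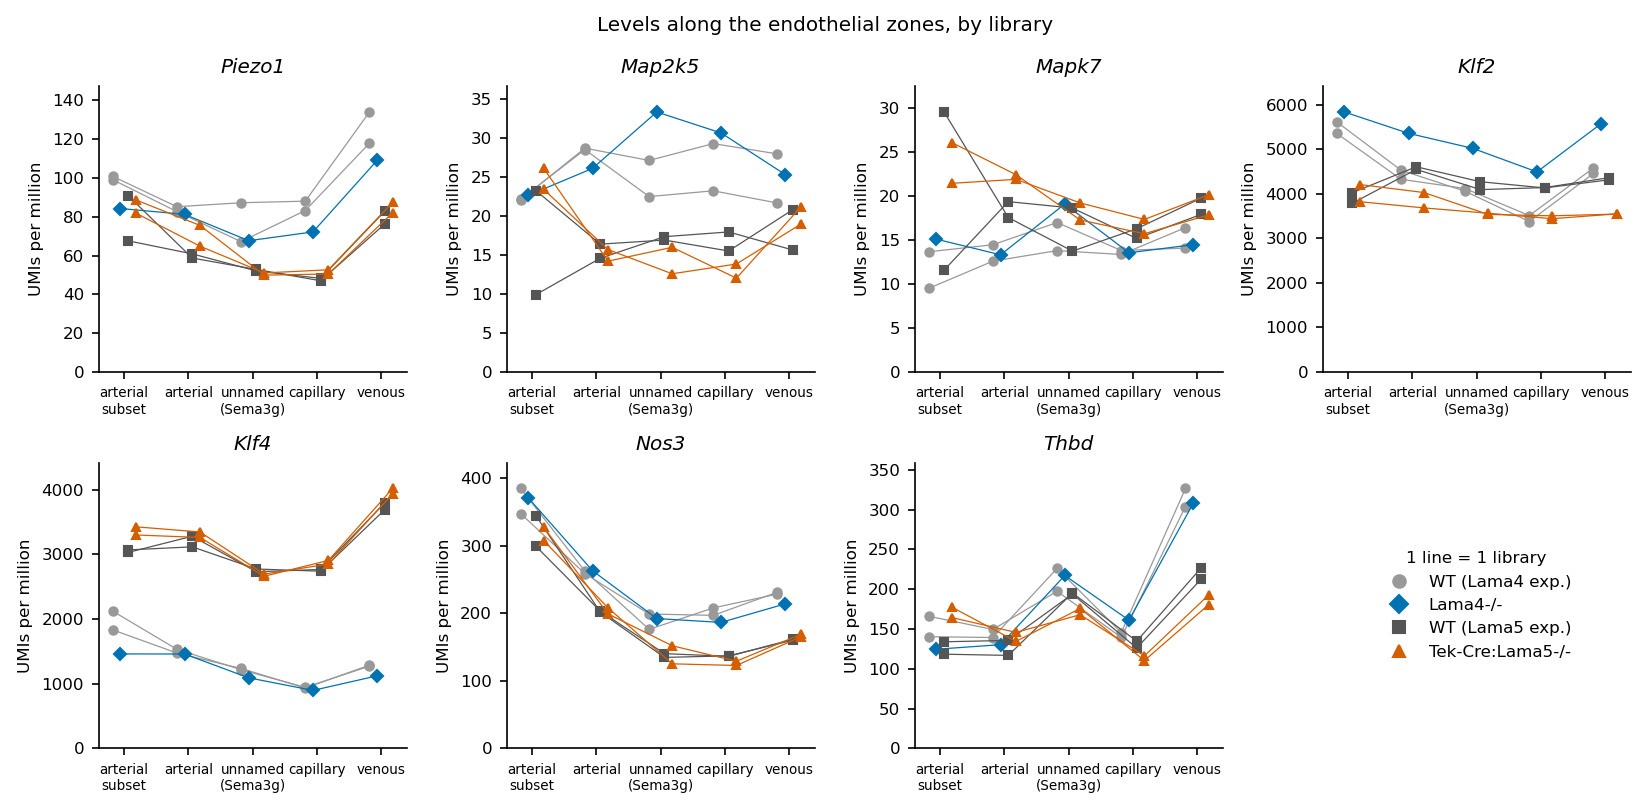
Levels of the 7 genes in arterial, capillary and venous endothelial-like cells (CPM of summed counts), with the arterial subset of the finer clustering and the unnamed cluster led by Sema3g, one line per library, coloured by group. Nos3 falls from arterial to capillary cells in each library, Thbd and Piezo1 are higher in venous than in arterial or capillary cells in each library, and the arterial and venous order of Klf4 differs between the experiments.

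In the Lama5 knockout, endothelial Klf2 was lower than in its WT and Klf4 was not lower with it. Klf2 was 4287 and 4309 CPM in the WT libraries and 3541 and 3621 CPM in the knockout libraries, a log2 fold change of -0.26 (SE 0.017). The groups did not overlap. The share of all genes whose groups do not overlap is not given, so nothing is read from a lack of overlap here or below. Klf2's difference was already known when the genes were chosen, so it is given as a description, with no p-value, here and in the other cell groups. Klf4 was 3159 and 3118 CPM in WT and 3281 and 3246 CPM in the knockout, a log2 fold change of 0.06 (SE 0.017) with an adjusted p of 0.0190 in edgeR's quasi-likelihood test. That small rise fell short of the threshold when any of 3 of the 4 libraries was left out (adjusted p 0.128, 0.213 and 0.0704 without WT 2, knockout 1 and knockout 2) and in DESeq2 (0.0811).

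Of the target genes, Thbd passed the test and Nos3 did not. Thbd was 164.3 and 170.7 CPM in WT and 155.2 and 148.8 CPM in the knockout, a log2 fold change of -0.14 (SE 0.031, adjusted p 0.00121 in edgeR), and its groups did not overlap. In DESeq2 the same difference had an adjusted p of 0.0648. Nos3 was 158.8 and 156.1 against 153.0 and 159.4 CPM, so its groups overlapped, and its log2 fold change was -0.01 (SE 0.031, adjusted p 0.835 in edgeR).

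The upstream genes did not pass the test. Piezo1 was 59.1 and 61.9 CPM in WT and 65.4 and 65.2 CPM in the knockout, a log2 fold change of 0.11 (SE 0.044, adjusted p 0.0778 in edgeR). With at least 1000 genes per cell in place of 500 and mitochondrial UMIs under 10%, the value was 0.15 and passed (adjusted p 0.0184). Map2k5 had a log2 fold change of -0.10 (SE 0.082, adjusted p 0.439 in edgeR) and Mapk7 one of 0.13 (SE 0.079, adjusted p 0.273 in edgeR). Klf2 left aside, Klf4 passed upwards and Thbd downwards. Of all 13148 genes tested, 19.2% passed, 10.6% upwards and 8.56% downwards. The members were chosen with results of this contrast known. Their adjusted p-values, here, in the zones and in other cell groups, are therefore descriptions and not tests of genes chosen beforehand. Nothing is read from how many passed.

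Genes induced by tissue dissociation moved in the same comparison. Of 15 such early genes, 9 fell, 4 rose and 2 did not pass the test in endothelial-like cells, where 8.56% of all genes fell and 10.6% rose. Their summed level was 23147 and 23237 CPM in WT and 22296 and 22211 CPM in the knockout. Klf2 was also counted in cells with few and with many early-gene UMIs. The bins were drawn within each library, so they are not matched for early-gene level between WT and knockout. The part of the early genes in the Klf2 difference was not tested. Endothelial-like cells with at least 2000 UMIs, thinned to that number, were split within each library by their early-gene UMIs. The limits, set to leave 3 bins of nearly equal size, were 35 and 36, and 56, UMIs in the WT libraries. In the knockout libraries they were 32 and 33, and 52 and 51. In the lowest bin the mean Klf2 count at 2000 UMIs was 6.94 and 7.37 in WT and 5.42 and 5.31 in the knockout. In the highest bin it was 10.2 and 10.0 in WT and 8.27 and 8.30 in the knockout. Klf4 in the same bins was 3.56 and 3.62 against 3.66 and 3.69, and 8.46 and 8.23 against 8.46 and 8.15.

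Across zones the Klf2 difference had similar sizes. Its log2 fold change was -0.25 (SE 0.030) in arterial, -0.25 (SE 0.021) in capillary and -0.29 (SE 0.025) in venous cells, -0.24 in the cluster led by Sema3g and -0.35 in the cluster led by Ifit3. Capillary Klf2 was 4136 and 4128 CPM in WT and 3438 and 3502 CPM in the knockout, and venous Klf2 was 4357 and 4309 CPM against 3545 and 3541 CPM. In the arterial subset led by Fbln5, Mgp and Cytl1, of 62 to 79 cells per library, Klf2 was 3781 and 4019 CPM in WT and 3819 and 4204 CPM in the knockout. The log2 fold change there was 0.04 (SE 0.065), and its difference from the other zones was not tested.

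The response of Thbd to the knockout differed between zones by a call that most alternatives with a library left out did not keep. In venous cells it was 212.2 and 226.4 CPM in WT and 192.6 and 180.5 CPM in the knockout (log2 fold change -0.23, SE 0.047, adjusted p 0.000963 in edgeR). In capillary cells it was 126.1 and 134.7 against 116.1 and 110.2 CPM (-0.20, SE 0.057, adjusted p 0.00783 in edgeR), a call lost in DESeq2 (0.300) and without WT 2 (0.219) or knockout 2 (0.182). In arterial cells it was 135.6 and 116.8 against 145.7 and 134.4 CPM, with overlapping groups (0.14, SE 0.071, adjusted p 0.260 in edgeR). The test of any difference of the knockout effect among these 3 zones gave an adjusted p of 0.0142 for Thbd in edgeR, where 82 of 11818 genes (0.694%) passed. The arterial minus the capillary effect was 0.34 on the log2 scale (SE 0.091). Without Lama5 WT library 2 the adjusted p was 0.763, without knockout library 1 it was 0.158 and without knockout library 2 it was 0.0643, so the call rests on these libraries. It was also lost when zones were drawn from marker scores, where the arterial minus the capillary effect was 0.31 (adjusted p 0.290 for the test among zones).

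Of the other members in the zones, Klf4 passed in capillary (0.06, adjusted p 0.0324) and venous cells (0.09, adjusted p 0.0283) in edgeR, and its arterial value was 0.05 (adjusted p 0.463). Both calls were lost in DESeq2 (adjusted p 0.367 and 0.101) and when WT 1 (0.169 and 0.0700) or WT 2 (0.297 and 0.379) was left out, and the capillary one also without knockout 1 (0.0793) and in zones from marker scores (0.492). Nos3 passed in no zone, with log2 fold changes of 0.01 in arterial, -0.12 in capillary and 0.05 in venous cells. Piezo1, Map2k5 and Mapk7 passed in no zone either. The shares of all tested genes that passed were 7.02% in arterial, 9.75% in capillary and 10.7% in venous cells, 6.23% in the cluster led by Sema3g, 0.242% in that led by Ifit3 and 0.629% in the arterial subset.

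Outside the endothelium the Klf2 difference took both directions. Smooth muscle-like cells had 621.8 and 587.6 CPM in WT and 404.3 and 460.1 CPM in the knockout (log2 fold change -0.49, SE 0.061). Perivascular macrophage-like cells had 1195 and 1335 CPM in WT and 944.2 and 853.6 CPM in the knockout (-0.51, SE 0.14; -0.42 without WT 2 and -0.58 without knockout 1). Microglia-like cells went the other way, from 1798 and 1815 CPM to 2059 and 2054 CPM (0.19, SE 0.034). Groups did not overlap in any of the 3 classes. The summed early-gene level was also lower in the knockout in microglia-like cells, at 14696 and 14856 CPM beside 17672 and 17245 CPM in WT, in smooth muscle-like cells, at 20695 and 21024 beside 23277 and 22751 CPM, and in perivascular macrophage-like cells, at 21933 and 23282 beside 30342 and 27321 CPM. In the last of these, of 55 to 69 cells per library, 7 of the 15 early genes fell and none rose (median log2 fold change -0.38), where 0.571% of all genes fell. Its part in these results was not tested. In astrocyte-like and pericyte-like cells the Klf2 groups overlapped.

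In astrocyte-like cells 2 members passed, on few counts. Piezo1 had 3 and 6 UMIs in the WT libraries and 9 and 10 in the knockout libraries (log2 fold change 1.99, SE 0.51, adjusted p 0.0115 in edgeR). Mapk7 had 8 and 19 UMIs in WT and 19 and 15 in the knockout (1.28, SE 0.39, adjusted p 0.0345 in edgeR). Among all tested genes, 13.1% passed in astrocyte-like, 13.9% in microglia-like, 4.97% in smooth muscle-like, 1.27% in perivascular macrophage-like and 0.29% in pericyte-like cells. The low-count filter kept 5 of the 7 genes in astrocyte-like and in microglia-like cells, 6 in smooth muscle-like, 3 in pericyte-like and 2 in perivascular macrophage-like cells. No member passed in pericyte-like cells. The Piezo1 call was lost when any of the 4 libraries was left out (adjusted p 0.159 to 0.384) and in DESeq2 (0.272). The Mapk7 call was lost without WT 1 (0.267), without knockout 1 (0.229) and in DESeq2 (0.359).

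**Figure D4:**
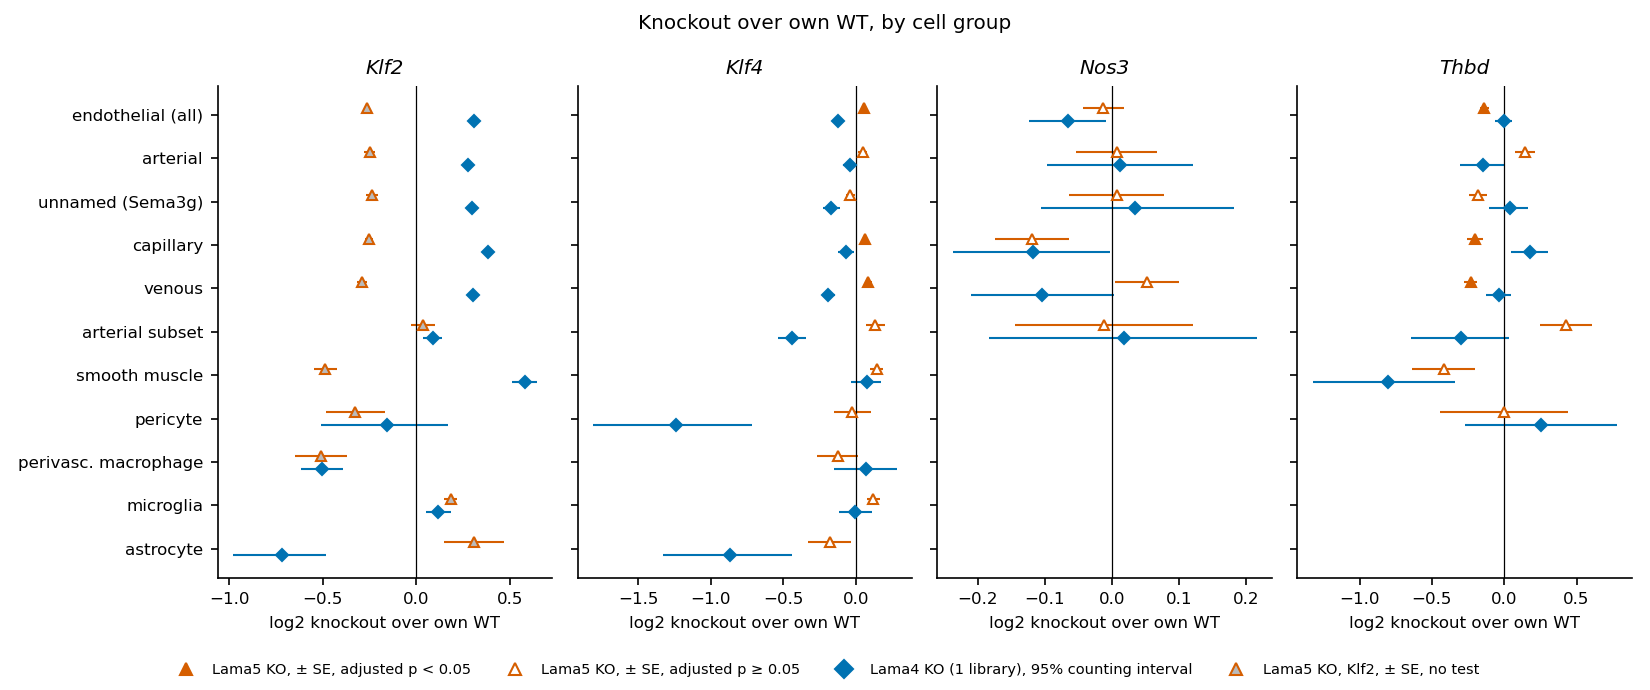
Log2 change of Klf2, Klf4, Nos3 and Thbd against the own WT by cell group: the Lama5 knockout as edgeR fold changes with standard errors (triangles, filled where the adjusted p was under 0.05, grey for Klf2, which is described without a test), and the single Lama4-/- library as the ratio to the mean of both WT libraries with its 95% counting interval (diamonds, drawn on at least 10 UMIs). Endothelial Klf2 lies at -0.26 for the Lama5 knockout and at 0.31 for the Lama4-/- library.

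The Lama4-/- comparison has 1 library on the knockout side, so it is described by its values, with intervals that cover counting error only, and no test. Endothelial Klf2 stood at 5105 CPM in that library, above 4133 and 4098 CPM in WT, a ratio of 1.24 (95% exact interval 1.23 to 1.25). Of 6393 genes with at least 20 CPM, 0.735% had as high a ratio. Klf4 was lower, at 1125 CPM beside 1215 and 1232 CPM (ratio 0.920, interval 0.904 to 0.936). Piezo1 was 83.7 CPM beside 90.9 and 100.5 CPM (0.874, 0.823 to 0.933) and Nos3 211.5 CPM beside 220.8 and 222.1 CPM (0.955, 0.918 to 0.994). Thbd and Mapk7 lay between their WT values. Map2k5 was 28.9 CPM beside 24.0 and 27.9 CPM, with WT libraries that differed by more than the knockout did from the higher of them. Klf2 alone among the 7 moved by more than 0.25 on the log2 scale, a size that 7.77% of the 6393 genes reached.

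The zones showed the same direction for Klf2, with a smaller ratio in the arterial subset. The ratio was 1.21 in arterial, 1.30 in capillary and 1.23 in venous cells, where 15.3%, 13.1% and 14.4% of genes at 20 CPM or more moved by over 0.25. In the arterial subset led by Fbln5, Mgp and Cytl1 it was 1.06 (interval 1.027 to 1.101), and 34.7% of genes there had as high a ratio. Capillary Klf2 was 4487 CPM in the Lama4-/- library beside 3506 and 3374 CPM in WT. In smooth muscle-like cells Klf2 was 1322 CPM beside 836.1 and 930.0 CPM, a ratio of 1.497. In perivascular macrophage-like cells it was lower, at 1418 CPM beside 2118 and 1905 CPM (0.705), and in microglia-like cells it was 345.9 CPM beside 315.4 and 321.6 CPM (1.09). Pericyte-like Klf2, at 134.8 CPM, lay between its WT values of 131.2 and 169.7 CPM. Astrocyte-like Klf2 was 96.8 CPM beside 189.5 and 128.6 CPM, WT values that lay far apart, in a class where Klf2 lay near endothelial marker RNA. The share of genes past 0.25 was 24.3% in smooth muscle-like, 46.4% in perivascular macrophage-like, 13.5% in microglia-like, 38.1% in pericyte-like and 30.4% in astrocyte-like cells. The summed early-gene level in perivascular macrophage-like cells was 24190 CPM in the Lama4-/- library beside 34791 and 33344 CPM in WT, and its part in the Klf2 value was not tested.

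Other members moved further than Klf2 outside the endothelium, on fewer counts. Pericyte-like Klf4 was 46.8 CPM (34 UMIs) in the Lama4-/- library beside 95.7 and 125.0 CPM in WT, a ratio of 0.424 (interval 0.285 to 0.609). Smooth muscle-like Thbd was 21.3 CPM (43 UMIs) beside 27.2 and 47.2 CPM, a ratio of 0.574 (0.399 to 0.789), and its WT libraries differed by 0.78 on the log2 scale.

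The early genes in endothelial-like cells summed to 12410 CPM in the Lama4-/- library and to 13971 and 13910 CPM in WT. They did not move together: of the 15, 2 rose and 4 fell by more than the log2 size set for this library. The largest falls in CPM were in Hspa1a (1936 beside 2830 and 2934 in WT) and Hspa1b (1518 beside 1953 and 1969). Dusp1 (935.4 beside 804.7 and 725.7 CPM) and Btg2 (833.2 beside 666.7 and 690.3 CPM) were the 2 that rose. Bins of early-gene UMIs were again drawn within each library and not matched between libraries. Their limits were 12 and 23, and 12 and 25, UMIs in WT and 11 and 21 in the Lama4-/- library. The part of the early genes in the Klf2 value was not tested. The mean Klf2 count at 2000 UMIs was 7.88 in the Lama4-/- library beside 6.62 and 6.62 in WT in the lowest bin, and 12.8 beside 9.39 and 9.53 in the highest. Klf2 thus stood on opposite sides of its own WT in the knockouts, in endothelial-like and smooth muscle-like cells. The difference between the knockouts was not tested, since the Lama4-/- group has 1 library.

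The WT pools of the experiments, which carry no deletion, differed by more than either knockout did from its WT for Klf4. In a joint fit of endothelial-like cells, the Lama5 WT libraries were above the Lama4 WT libraries for Klf4 by 1.53 on the log2 scale (SE 0.025, adjusted p 5.86e-16 in edgeR). Klf2 was higher by 0.23 (adjusted p 9.10e-07) and Mapk7 by 0.41 (adjusted p 4.56e-04) in the same edgeR fit. Piezo1 was lower, at -0.49 (adjusted p 8.09e-07), as were Map2k5 at -0.44 (3.00e-04), Nos3 at -0.32 (4.00e-07) and Thbd at -0.15 (0.00408). These values come from the joint scaling of both WT pools. The separately scaled levels given earlier lie closer together for Klf2 (4287 and 4309 beside 4133 and 4098 CPM) and further apart for Thbd (164.3 and 170.7 beside 216.7 and 200.2 CPM), so the sizes depend on the scaling. Without Lama5 WT library 1 the adjusted p for Thbd was 0.0530 in edgeR. All 7 genes passed, where 55.4% of all genes did. The 15 early genes differed as well, 13 up and 2 down with a median of 1.42. Experiment, mice and tissue handling cannot be told apart in this contrast.

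**Figure D5:**
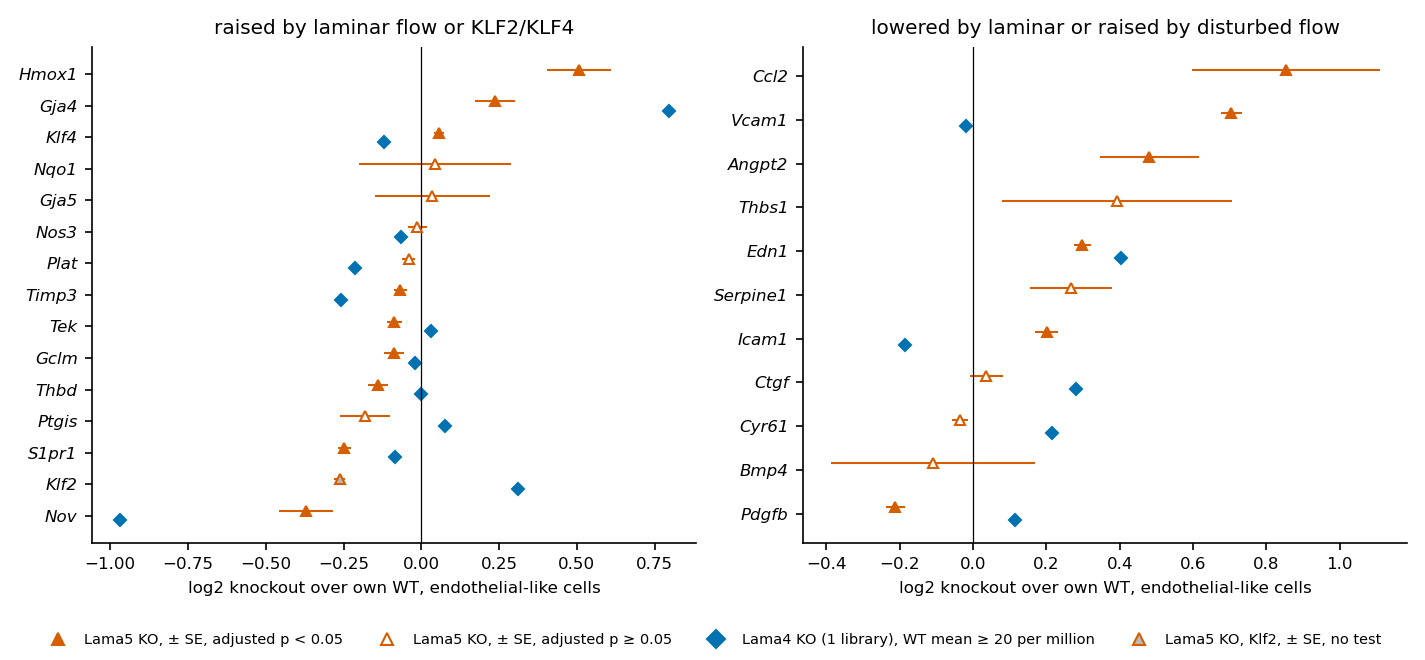
Log2 change of each tested gene of both flow lists in endothelial-like cells against the own WT: edgeR fold changes with standard errors for the Lama5 knockout (triangles, filled where the adjusted p was under 0.05, grey for Klf2) and the ratio of the single Lama4-/- library for genes at 20 CPM or more in WT (diamonds). In the Lama5 knockout, genes lowered by laminar flow or raised by disturbed flow have a median of 0.27 and genes raised by laminar flow or KLF2/KLF4 one of -0.07.

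The wider pathway was read from lists of known genes, chosen with earlier results of these data known and described by their counts in edgeR at an adjusted p under 0.05. Over all 13148 genes tested in the Lama5 knockout endothelium, 10.6% rose and 8.56% fell, and the median log2 fold change was -0.001. The listed genes were not matched to all genes for level, so nothing is read from how many passed. The genes named were picked by the size of their change, so their values are descriptions. Of 19 mechanosensing genes, 3 rose, 2 fell and 14 did not pass (median 0.01). P2rx4, an ATP-gated channel, fell by 0.41 on the log2 scale (13.2 and 13.2 to 10.3 and 9.7 CPM), and Gna11, a G protein subunit, by 0.15. Kcnj2, a flow-sensitive potassium channel, rose by 0.25. Piezo2, the other member of the PIEZO family, rose by 1.91, but never exceeded 0.8 CPM.

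Of 13 genes of the MEKK3, MEK5 and ERK5 cascade, its transcription factors and the CCM complex that restrains it, 2 rose, 1 fell and 10 did not pass (median 0.04). Mef2c, a MEF2 factor, was 149.5 and 152.4 CPM in WT and 170.9 and 168.8 CPM in the knockout (log2 fold change 0.17). Map3k2, a kinase upstream of MEK5, rose by 0.15, and Heg1, a receptor that binds the CCM complex, fell by 0.14.

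Of 15 tested genes known to rise under laminar flow or with KLF2 and KLF4, 4 of them members, 3 rose, 7 fell and 5 did not pass (median -0.07). Klf2, whose difference was known beforehand, is among the 7, so this count is not independent of the choice of genes. S1pr1, the receptor for sphingosine-1-phosphate, fell from 829.6 and 831.7 CPM to 698.8 and 700.6 CPM (-0.25). Nov, also called Ccn3, fell by 0.37. Hmox1, haem oxygenase, went against the list's name and rose by 0.51, at 9.3 to 15.8 CPM.

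Of 11 tested genes that laminar flow lowers or disturbed flow raises, 5 rose, 1 fell and 5 did not pass (median 0.27). Vcam1, a leukocyte adhesion molecule, was 157.5 and 157.4 CPM in WT and 251.7 and 261.6 CPM in the knockout (log2 fold change 0.70, SE 0.028). Edn1, which encodes the vasoconstrictor endothelin, rose from 391.0 and 372.9 CPM to 469.6 and 469.6 CPM (0.30). Angpt2, a ligand of TIE2, rose by 0.48 with values of 8.7 and 9.5 CPM in WT and 15.7 and 9.5 CPM in the knockout. Ccl2, a monocyte attractant, rose by 0.85 but stayed at or below 2.5 CPM.

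Of 15 tested genes of nitric oxide synthesis and signalling, 6 rose, 1 fell and 8, Nos3 among them, did not pass (median 0.09). Nostrin, which traffics the NOS3 protein, fell from 583.4 and 584.5 CPM to 482.9 and 479.2 CPM (-0.28). Hsp90aa1, a chaperone of NOS3, rose by 0.17, Nosip, which binds NOS3, by 0.16, and Gch1, which makes its cofactor, by 0.12. Of 9 tested coagulation genes, 2 rose, 2 fell and 5 did not pass (median -0.04). Beside Thbd, F3, which encodes tissue factor, fell by 0.88 at low levels (6.5 and 7.0 to 3.8 and 3.4 CPM). Procr, the endothelial protein C receptor, rose by 0.19 and Vwf, von Willebrand factor, by 0.10.

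Of 11 other KLF genes, 3 rose, 4 fell and 4 did not pass (median 0.001). Klf13 fell from 418.9 and 424.2 CPM to 325.5 and 338.8 CPM (-0.34), Klf12 by 0.26 and Klf15 by 0.51, while Klf5 rose by 0.84 at 3.6 to 6.9 CPM. Of the 29 list genes named here that are not members, 11 lost their call when 1 of the 4 libraries was left out: Angpt2 (0.06 without knockout 1), Ccl2, Gch1, Kcnj2, Klf15, Map3k2, Nosip, Nov, Piezo2, Procr and Vwf. DESeq2 did not call 11 either, P2rx4 in place of Piezo2. Among the early genes the largest changes were in Hspa1b (-0.58), Btg2 (-0.39) and Hspa1a (-0.27), which fell, and in Ier3 (0.22), which rose.

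In the Lama4-/- endothelium, described without a test, none of the 15 mechanosensing and 12 cascade genes at 20 CPM or more moved by over 0.25 on the log2 scale. Gja4, a connexin gene of the laminar-flow list, was 65.7 CPM beside 35.2 and 40.2 CPM in WT, and Nov was 24.3 CPM beside 49.3 and 46.8 CPM. Edn1 was 357.2 CPM beside 265.4 and 274.9 CPM, so it was above WT in both knockouts. Nostrin was 450.4 CPM beside 582.0 and 573.9 CPM, below WT in both. Vcam1, at 248.6 CPM, lay between its WT values of 258.3 and 246.2 CPM.

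The genes whose levels ran most like each member were taken by Pearson's correlation of log2(CPM + 1) over 77 points, which are 11 cell groups in 7 libraries, among 7013 genes with a mean of at least 20 CPM. The points share libraries and cells, so the values are descriptions. Nos3 ran most like Sox17 (0.98), Ptprb (0.97) and Fgd5 (0.97). Thbd ran most like Vat1 (0.95), Slfn5 (0.95) and Ahnak (0.94). Klf2 was closest to Atox1 (0.92), Rab11a (0.91) and Cracr2b (0.91). Klf4 was closest to Dusp1 (0.91), an early gene, Cdkn1a (0.90) and Plk2 (0.89). Piezo1 was closest to Slc6a6 (0.91), Gimap1 (0.88) and Pdgfb (0.88). The likeness was weaker for Map2k5, whose nearest gene was Usp4 (0.79), then Bak1 (0.75) and Brap (0.74), and for Mapk7, with Zfp800 (0.71), Atp7a (0.69) and Avl9 (0.69).

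From cell to cell, Klf4 rose with the early genes by a larger ratio than Klf2. From the lowest to the highest bin of endothelial-like cells by early-gene UMIs, the mean Klf4 count at 2000 UMIs rose 1.75-fold to 2.38-fold over the 7 libraries, and that of Klf2 rose 1.36-fold to 1.62-fold. The Klf4 ratio was larger than the Klf2 ratio in each of the 7 libraries, at 2.21 to 2.38 beside 1.36 to 1.56 in the Lama5 experiment and 1.75 to 2.36 beside 1.42 to 1.62 in the Lama4 experiment. The ratios were described and not tested.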

How the data were processed

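The authors deposited raw UMI counts, not normalized (10x gene by barcode matrices written by Cell Ranger 3.1.0, per the file headers); mm10 and Seurat 3.1 are named in the submitters' processing notes. Both Lama4-/- matrices are identical and were used once, and 99.62% of gene IDs were in GENCODE M21. Cells with at least 500 genes and under 15% mitochondrial UMIs were kept (4352 and 2355 removed), as were cells not scored among the most doublet-like (0.8% per 1000 cells, 3015 removed). Clusters (34, Leiden, resolution 1) were named "-like" from marker lists. Endothelial zones came from a second clustering without the 7 genes or the lists, at resolution 0.6 (1 for the arterial subset), settings chosen after its clusters were seen. Counts were summed per library and cell group with at least 50 cells in every library. Cells under 2000 UMIs were left out of thinned shares, thinned means and early-gene bins. Lama5 knockout and WT were compared with edgeR 4.0.16 (filterByExpr, TMM, quasi-likelihood test, Benjamini-Hochberg over all genes, adjusted p under 0.05) in R 4.3.3. DESeq2 1.42.0 was an alternative. For Lama4-/-, log2 ratios of CPM + 0.5 were taken to the mean of both WT libraries, and the size of 0.25 was chosen after the values were seen. Genes named were the 7 members, the 4 called genes of largest change in each list and the 3 most correlated genes per member, and genes named for the Lama4-/- library were chosen after their values were seen. The edgeR step was tested on simulated data: for endothelial-like cells it recovered 19 of 50 genes changed 1.2-fold and 49 of 50 changed 4-fold. The members and lists were chosen with earlier results of these data known.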

Additional observations from a re-analysis of the deposited data

Results flagged for a closer look

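Thbd is flagged because the Lama5 knockout effect differed among arterial, capillary and venous endothelial-like cells (edgeR, adjusted p 0.0142 over all genes). That call was lost without Lama5 WT 2 (0.763), knockout 1 (0.158) or knockout 2 (0.0643), and in zones from marker scores (0.290). In the Lama4-/- library some members lay on the other side of WT from the Lama5 knockout in the same cell group. Their values did not overlap WT in either experiment. The share of all genes placed in this way is not given, and these differences were not tested. For Klf2, lower in the Lama5 knockout, the Lama4-/- log2 ratio was 0.31 in endothelial-like, 0.27 in arterial, 0.38 in capillary, 0.30 in venous and 0.58 in smooth muscle-like cells. For Klf4, higher in the Lama5 knockout, it was -0.12 in endothelial-like, -0.067 in capillary and -0.19 in venous cells. For capillary Thbd it was 0.18, with the Lama5 knockout lower, and for astrocyte-like Piezo1 it was -0.62, on 9 UMIs, with the Lama5 knockout higher. Within the Lama5 knockout, Klf2 was higher in microglia-like cells (log2 fold change 0.19) and lower in endothelial-like cells (-0.26), also a difference that was not tested.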

How the results depend on the processing

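In the Lama5 knockout endothelium, Map2k5 and Mapk7 kept their direction and did not pass under any alternative run, and Klf2, described without a test, ranged from -0.28 to -0.25. Values given here for Klf4, Thbd, Piezo1 and Nos3 are log2 fold changes and not adjusted p-values. Klf4 lost its call in DESeq2 (0.058), with no filter on low counts (0.041) and without WT 2, knockout 1 or knockout 2. It ranged from 0.046 to 0.065 with 1 library left out. Thbd lost its call in DESeq2 (-0.14). Piezo1 gained one under the stricter cell filter (0.15). Nos3 was 0.0048 under that filter and ranged from -0.043 to 0.015 with 1 library left out. The cause of these changes was not tested. DESeq2 called fewer genes than edgeR: 968 against 2522 in endothelial-like cells, 223 against 744 in arterial, 326 against 1099 in capillary and 409 against 1194 in venous cells, 343 against 1172 in astrocyte-like, 487 against 1339 in microglia-like, 4 against 18 in pericyte-like, 18 against 40 in perivascular macrophage-like and 177 against 476 in smooth muscle-like cells, and 4737 against 7324 between the WT pools. With 1 library left out the counts ranged from 608 to 1200 in astrocyte-like, 833 to 1081 in microglia-like, 24 to 36 in pericyte-like, 23 to 47 in perivascular macrophage-like, 415 to 537 in arterial and 681 to 739 in capillary cells, and from 36 to 102 for the difference between zones, where a group left with 1 library is assumed to vary like the others. Zones drawn from per-cell marker scores, with 2085 cells near a limit of the score, gave 624 genes in capillary cells and 53 for the difference between zones. In those zones the arterial minus capillary effect on Thbd was 0.31 (adjusted p 0.290 for any difference among zones) and arterial Nos3 was -0.0090. With 1 library left out that Thbd difference ranged from 0.19 to 0.51 and arterial Nos3 from -0.022 to 0.040.

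Unscaled totals moved the Lama4-/- endothelial log2 ratios to 0.36 for Klf2, -0.072 for Klf4, -0.017 for Nos3 and 0.057 for Mapk7, and the stricter cell filter moved Nos3 to -0.074. Among zone ratios (log2), venous over capillary Klf4 was 0.36 and Mapk7 -0.0031 in zones from marker scores. Shares of thinned cells with a UMI gave 0.0034 for Klf2 and 0.40 for Nos3, arterial over capillary, and 0.059 for Klf4, 0.55 for Thbd, 0.47 for Piezo1, 0.38 for Map2k5 and -0.13 for Mapk7, venous over capillary. The share of Klf2 is at its ceiling.

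Libraries with the same number share only that number: the deviations of same-numbered libraries from their group means had a correlation of -0.075 over 6041 genes. With a replicate block 2535 genes were called in endothelial-like cells and 34 in pericyte-like cells. Counting error limits most the members with few UMIs, such as astrocyte-like Piezo1, at 3 to 10 per Lama5 library.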

Other observations

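Classes with too few cells per library were summed over all libraries, so these are pooled values with no replicate spread and no comparison of groups. The 334 ependymal-like cells held 739.3 CPM of Klf2 (2882 UMIs) and 540.0 CPM of Klf4, and the 182 fibroblast-like cells held 726.5 and 531.5 CPM. Klf2 was at 712.3 CPM in the 180 B-like cells and at 547.0 CPM in the 174 T or NK-like cells, lymphocytes in which KLF2 is known to govern trafficking. The 4312 oligodendrocyte-like cells had 35.7 CPM of Klf2 and 62.3 CPM of Klf4, and the 183 choroid plexus-like cells had 33.0 and 8.2 CPM. Thbd lay at 1.0 CPM in oligodendrocyte-like, 2.3 in choroid plexus-like, 2.8 in ependymal-like, 3.6 in T or NK-like and 27.3 CPM in B-like cells.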
